A study of Mus musculus with 8 samples.

Results

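Ribosomal protein genes were examined in CD45+ cells of mammary tumors grown from E0771, a mouse breast cancer cell line, and from 2 therapy-resistant lines derived from it. Members were chosen by symbol (Rpl or Rps followed by a digit, Rplp0, Rplp1, Rplp2 or Rpsa, without a "-ps" suffix) and by a minimum of 50 unique molecular identifiers (UMIs, counts of captured mRNA molecules) over all deposited cells. Of 32285 genes in the files, 96 symbols matched and 93 passed the minimum. The members nearest to the minimum were Rps6ka4 with 84 UMIs, Rps6ka2 with 112 and Rpl39l with 128 on the inside, and Rps6kl1 with 6, Rps6ka6 with 1 and Rpl10l with 0 on the outside. Of the 93 members, 84 encode a ribosomal protein or its close paralog. The other 9 match by name only: 8 encode Rps6k kinases and Rps19bp1 encodes a protein that binds Rps19, and together they held 0.112% of the members' UMIs. The 5 "-ps" features held 5576 UMIs, 0.0392% of the members' total, and stayed out.

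Tumors were collected on day 18 after implantation of parental E0771 cells (2 mice analysed), E0771-Res1 cells (3 mice) or E0771-Res2 cells (3 mice). Both resistant lines were set up from tumors that relapsed after chemotherapy combined with immune checkpoint blockade, and each is 1 line, so a difference from parental tumors is one of these lines. Each mouse carried its own oligonucleotide tag, and 0 cell barcodes were shared between mice. The 11430 deposited cells held 644 to 2189 cells and 5036667 to 18894504 gene UMIs per mouse, and the members held 16.8% of all gene UMIs. Kept were the 10605 cells (92.8%) with 500 to 6000 detected genes and a mitochondrial share under 10%. Separate animals are the replicates, and UMIs were summed per mouse and cell class before any test.

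Ribosomes translate mRNA into protein. The small subunit decodes the mRNA, the large subunit joins the amino acids, and the P stalk (Rplp0, Rplp1 and Rplp2) on the large subunit recruits elongation factors. Most of these proteins are present once per ribosome, and their mRNAs share a start called the 5′ terminal oligopyrimidine tract, a C followed by further C and T letters, through which growth signals set their translation. Lymphocytes raise ribosome production when they are activated and divide.

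The sequence around the start sites is shown because it is a feature that the choice of members by name did not use. RefSeq start sites (GRCm38.p6) were found for 71 of the 93 members. A C followed by at least 7 further C or T letters, within 30 bases of the start on the gene's strand, was present in 36 of 76 start sites of ribosomal members (47.4%) and in 18.2% of all 32851 start sites. In the 300 bases from 250 before to 50 after the start, CCGGAAG, the core of binding sites of ETS factors, was present on either strand in 35.5% of the ribosomal members' start sites and in 8.86% of all. AAGATGG, the core of YY1 sites, was present in 15.8% against 6.34%. A start annotated some bases away from the one used by the cells moves the tract within or out of this window, so a window without it says nothing about the mRNA. Printed here are 60 bases centred on the start, with the longest such run in capitals, first for Rps6, Rpl15, Rplp2 and Rps21, which moved with the set, and then for Rps15a, Rpl12, Rpl22l1, Rps27l, Rpl7l1 and Rpl36al, which did not in at least 1 comparison.
Rps6 (chr4:86857338-86857397, minus strand): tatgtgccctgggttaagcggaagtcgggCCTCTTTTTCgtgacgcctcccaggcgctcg
Rpl15 (chr14:18270957-18271016, minus strand): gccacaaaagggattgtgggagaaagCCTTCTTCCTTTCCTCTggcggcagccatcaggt
Rplp2 (chr7:141447621-141447680, plus strand): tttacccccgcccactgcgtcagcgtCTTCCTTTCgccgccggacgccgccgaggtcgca
Rps21 (chr2:180257349-180257408, plus strand): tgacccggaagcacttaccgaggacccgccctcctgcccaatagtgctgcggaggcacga
Rps15a (chr7:118116118-118116177, minus strand): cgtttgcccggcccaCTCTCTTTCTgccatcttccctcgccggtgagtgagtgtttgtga
Rpl12 (chr2:32961682-32961741, plus strand): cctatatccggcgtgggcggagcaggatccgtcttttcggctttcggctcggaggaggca
Rpl22l1 (chr3:28805478-28805537, plus strand): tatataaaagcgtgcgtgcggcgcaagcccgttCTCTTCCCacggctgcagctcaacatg
Rps27l (chr9:66946056-66946115, plus strand): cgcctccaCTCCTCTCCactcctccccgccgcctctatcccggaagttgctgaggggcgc
Rpl7l1 (chr17:46782627-46782686, minus strand): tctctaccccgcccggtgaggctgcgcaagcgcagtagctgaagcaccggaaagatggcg
Rpl36al (chr12:69184038-69184097, minus strand): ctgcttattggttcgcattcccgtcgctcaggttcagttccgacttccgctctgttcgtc
The run was present in the windows of Rps6, Rpl15, Rplp2, Rps15a and Rpl22l1 and absent from those of Rps21, Rpl12, Rpl7l1 and Rpl36al. Rps27l and Rps21 each had a second annotated start, not printed, whose window held no run. Members of both kinds of response were thus found with and without it. The lymphoid against C1qa-high fold changes described below had a median of 0.34 on the log2 scale over the 33 tested ribosomal members with such a run and of 0.24 over the 29 without, and their ranges overlapped (-0.57 to 0.93 and -0.42 to 0.81). For lymphoid against C1qa-low cells both medians were close, at 0.33 and 0.31.

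Members were described in 3 classes of kept cells. Lymphoid cells had at least 2 UMIs of Cd3d, Cd3e, Cd3g and Ncr1 together (T cell receptor complex and natural killer (NK) cell genes). Of the other cells with at least 5 UMIs of Lyz2, Csf1r, Cd14, Fcgr3 and Itgam together, those with at least 10 UMIs of C1qa, a complement gene of macrophages, were called C1qa-high myeloid and those with at most 1 were called C1qa-low myeloid. The classes held 1284, 2297 and 4178 cells. A further 1828 myeloid cells had 2 to 9 C1qa UMIs and 1018 cells met no gate. The genes named in the gates mark the classes by construction. Among markers not used in a gate, the 6 T and NK cell genes (Trac, Trbc2, Cd2, Lck, Nkg7 and Il7r) summed to 2065 to 2991 CPM (UMIs scaled so that all genes of a mouse and class sum to the same total) in the lymphoid class against 94.2 to 288 and 116 to 272 in the C1qa-high and C1qa-low classes. Il7r alone did not separate the classes, with medians of 103 and 80.0 in these myeloid classes and 99.5 in the lymphoid class. The 5 monocyte markers summed to 5965 to 9282 in C1qa-low cells and to 1235 to 3259 in C1qa-high cells. The lymphoid class was not free of myeloid RNA: 21.1% of its cells had at least 10 C1qa UMIs, 67.4% had at least 5 UMIs of the myeloid gate, and all 6 macrophage markers were above 0 in each mouse, with a sum of 2827 to 6100 CPM against 15705 to 21116 in C1qa-high cells. Doublets were not called, and free RNA was not removed.

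Lymphoid cells gave the members the highest share of their UMIs. Per mouse, the share was 20.2% to 22.7% in lymphoid cells (21.6% ± 0.803, SD, n = 8), 15.5% to 17.8% in C1qa-high myeloid cells (16.6% ± 0.816) and 14.4% to 16.2% in C1qa-low myeloid cells (15.3% ± 0.612). The lymphoid values lay above all values of both myeloid classes. Within a mouse, the lymphoid share exceeded the C1qa-high share by 4.96 ± 1.44 percentage points (range 2.99 to 7.04) and the C1qa-low share by 6.25 ± 0.918 points (5.17 to 7.80), in 8 of 8 mice each. The difference between C1qa-high and C1qa-low cells was smaller, at 1.29 ± 0.702 points, and ran from 0.192 to 2.18 in the same 8 mice. A share of UMIs is relative, so more ribosomal protein mRNA and less of other mRNA cannot be told apart. In 3′ UMI data a UMI is 1 captured 3′ end whatever the length of the mRNA, and levels of different genes were not compared.

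**Figure D1:**
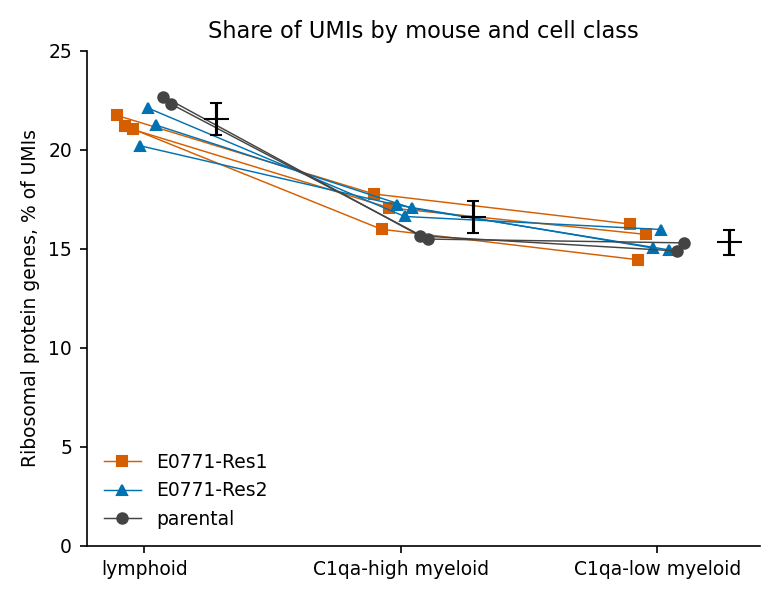
Share of gene UMIs held by the 93 members (y axis, percent) in 3 cell classes (x axis), with 1 line per mouse, marked by tumor, and the mean and SD of 8 mice beside them. Every lymphoid value, from 20.2% upward, lies above every myeloid value, and the C1qa-high values lie slightly above the C1qa-low values of the same mouse.

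In every class the share was higher in deeper cells. For cells of up to 5000 UMIs, of more than 5000 and up to 10000 (5000 to 10000 from here on), and of more than 10000, its median over mice was 18.8%, 20.4% and 22.5% in lymphoid cells, 13.3%, 15.4% and 17.6% in C1qa-high cells and 12.1%, 15.5% and 17.8% in C1qa-low cells. The classes differed in depth, with median UMIs per cell and mouse of 6962 to 10247, 7126 to 11481 and 5079 to 7930. At matched depth the lymphoid share stayed above that of C1qa-low cells, by 6.64 ± 1.49, 5.22 ± 1.84 and 5.05 ± 1.66 points from the lowest to the highest depth, and above that of C1qa-high cells by 5.39 ± 2.66, 5.40 ± 2.66 and 4.83 ± 1.48 points, in 8 of 8 mice each time. The difference between the myeloid classes did not keep one direction. It was 1.25 ± 1.54 points (higher in 7 of 8 mice) at the lowest depth, -0.174 ± 1.17 (4 of 8) at 5000 to 10000 UMIs and 0.212 ± 0.843 (5 of 8) above that. A cell's depth includes its ribosomal UMIs. The smallest sums in these strata held 5 cells in C1qa-high cells and 13 in lymphoid cells.

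**Figure D2:**
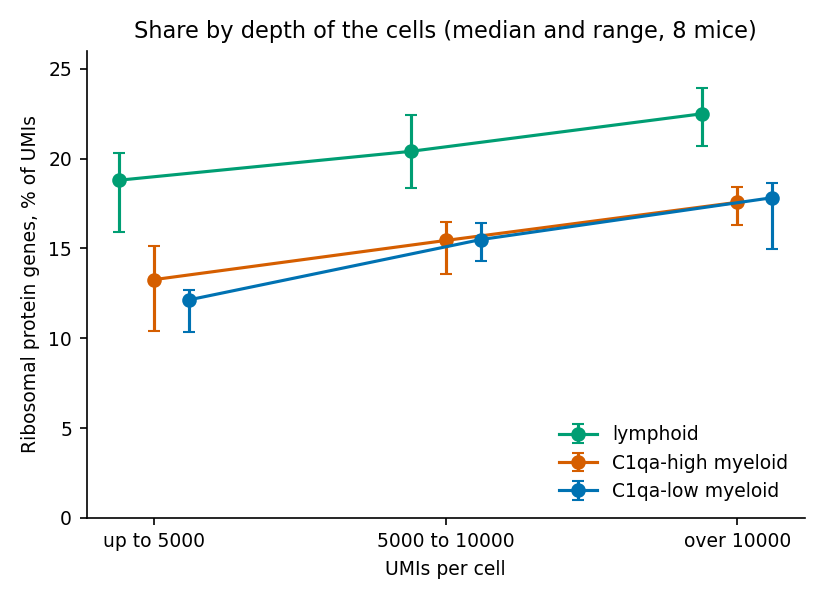
Share of UMIs held by the members (y axis, percent) by depth of the cells (x axis, UMIs per cell), with the median of 8 mice as points and their lowest and highest values as bars. The share is higher at each step of depth, and the lymphoid class stays above both myeloid classes while these overlap.

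Within the lymphoid class, cells with NK genes had a larger share than cells with T cell genes. The 1050 cells with Cd3 genes and no Ncr1 had 19.1% to 22.7% (21.1% ± 1.09, SD, n = 8), and the 117 cells with Ncr1 and no Cd3 gene had 23.4% to 25.6% (24.3% ± 0.779). The T cell value was below the NK cell value in 8 of 8 mice, by 1.45 to 5.37 points, with as few as 8 NK cells in a mouse. Lymphoid cells with at most 1 C1qa UMI had 22.8% ± 0.524 and those with at least 10 had 19.7% ± 0.663. Cell division genes were more frequent in the lymphoid class, where 40.7% of cells had a UMI of Mki67 or Top2a against 20.1% of C1qa-high and 10.7% of C1qa-low cells. Without these cells the lymphoid share still exceeded the C1qa-low share, by 4.97 points in place of 6.25, in 8 of 8 mice. The difference to C1qa-high cells was smaller too. The shares were then 19.5% to 21.1% in lymphoid and 15.1% to 17.5% in C1qa-high cells, in place of 20.2% to 22.7% and 15.5% to 17.8%. Along C1qa counts in the myeloid cells the share did not climb steadily: its mean was 15.3% at 0 UMIs, 15.4% at 1, 14.9% at 2 to 4, 15.1% at 5 to 9 and 14.7% at 10 to 19, and then 16.5% at 20 to 49 and 17.4% at 50 and more. These steps differed in depth: the median UMIs per cell were 5160.5 to 7676 per mouse at 0 C1qa UMIs and 11360.0 to 14249 at 50 and more.

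Most members rose together from C1qa-high myeloid to lymphoid cells. Of 89 members with enough UMIs to test, 73 were higher and 5 lower in lymphoid cells (edgeR's quasi-likelihood test with mouse as a block, Benjamini-Hochberg adjusted p under 0.05 over 9417 genes). Over all genes, 30.9% were called higher and 29.7% lower in the same comparison. The median log2 fold change was 0.29 over the members and 0.0043 over all genes. Both subunits took part: 26 of 31 small subunit genes and 40 of 43 large subunit genes were higher, with medians of 0.33 and 0.34, and so were all 3 P stalk genes. The small subunit genes ran from -0.21 to 0.89 and the large subunit genes from -0.040 to 0.60. Among those that did not pass the test were Rpl10 at -0.040 ± 0.040 and Rps25 at -0.083 ± 0.038, and Rps29 was the subunit gene called lower. Untested were Rpl39l, Rpl3l, Rps6ka2 and Rps6ka4, whose UMIs were too few. Fold changes are on the log2 scale after TMM scaling. The quartiles of all genes were -0.34 and 0.37, so the members' median lay between them.

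Rps21, Rpl13 and Rpl15 stood nearest to the median of the set. Rpl15, a large subunit protein, had 2268 to 2655 CPM (median 2491) in the 8 lymphoid sums, 1739 to 1981 (median 1840.2) in the C1qa-high sums and 1594 to 1871 (median 1689) in the C1qa-low sums. Its lymphoid values did not overlap with either (log2 fold change 0.34 ± 0.039 (SE), adjusted p = 2.89e-08 against C1qa-high cells). Rps6, the small subunit protein that S6 kinases phosphorylate, changed alike (log2 fold change 0.29 ± 0.039 (SE), adjusted p = 3.67e-07), from 1184 to 1476 CPM in C1qa-high cells to 1564 to 1838 in lymphoid cells.

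Against C1qa-low cells the picture was nearly as uniform. Of 89 members, 74 were higher and 2 lower in lymphoid cells, where 34.1% and 30.9% of all genes were called higher and lower. The median log2 fold change was 0.32 over the members and 0.047 over all genes. Of the small subunit genes 27 of 31 were higher, of the large subunit genes 42 of 43, and the other large subunit gene, Rpl10, was lower (log2 fold change -0.097 ± 0.040 (SE), adjusted p = 0.0370). This direction depended on the scaling: before TMM scaling Rpl10 had 1957 to 2229 CPM in lymphoid and 1886 to 2068 in C1qa-low cells, the lymphoid value being the higher one in 7 of 8 mice. With total UMIs as library size, 80 members were higher and 0 lower, and the median of all genes moved from 0.047 to 0.21. The share of all genes called in that fit is not given. Both comparisons share the lymphoid sums. Rps27a, which encodes a ribosomal protein fused to ubiquitin, had a log2 fold change of 0.10 ± 0.038 against C1qa-high cells, a call lost in 7 of 18 alternatives, and of -0.00036 ± 0.038 against C1qa-low cells.

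**Figure D3:**
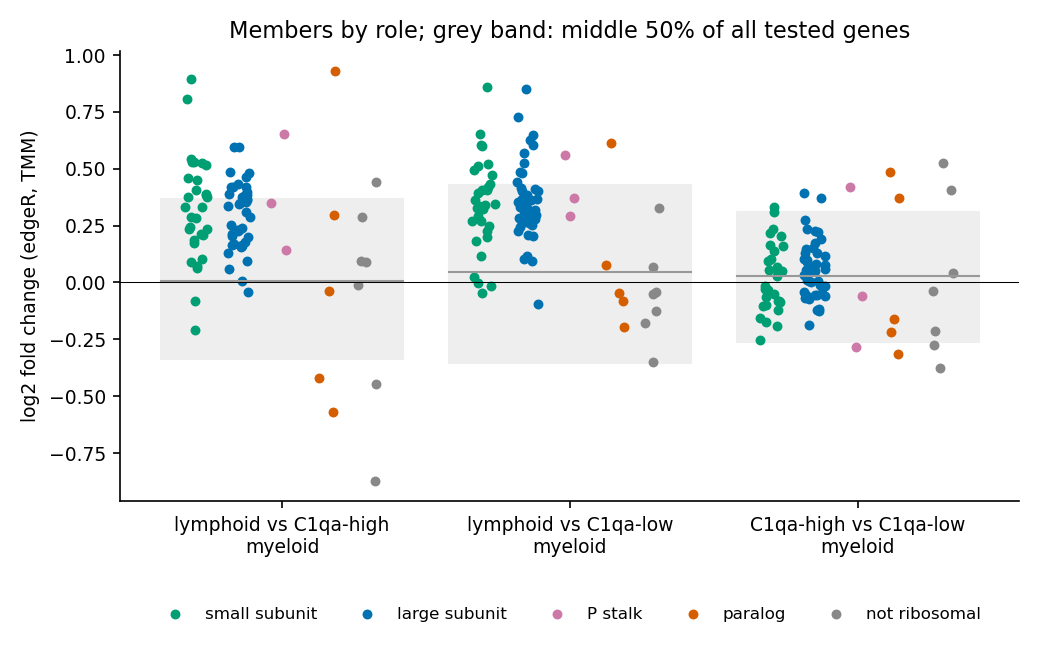
Fold change of each tested member (y axis, log2, edgeR with TMM scaling) in 3 comparisons of cell classes (x axis), coloured by role, with the median and interquartile range of all tested genes in grey. In both lymphoid comparisons the small subunit, large subunit and P stalk genes gather above 0, with medians between 0.33 and 0.37, while paralogs and members that encode no ribosomal protein spread around 0.

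A few members left the set. To find them, the same fit was repeated with each sum's ribosomal UMIs as its library size, so that 0 is the change of the set itself, and a member was counted when its deviation reached 0.5 on the log2 scale with an adjusted p under 0.05 and had the same sign in all 8 mice. Since the members set this scale, most of them lie near 0 by construction: the median size of the deviation over the 82 tested ribosomal members was 0.12 against C1qa-high cells and 0.090 against C1qa-low cells. Past the limit were 8 of 89 members in lymphoid against C1qa-high cells, 4 in lymphoid against C1qa-low cells and 0 in C1qa-high against C1qa-low cells, where 61 members had an unadjusted p under 0.05 and were smaller than the limit or changed sign between mice. Without cells that had a UMI of Mki67 or Top2a, 0 members were past the limit against C1qa-low cells, so that Rps15a, Rpl12, Rpl36al and Rps6kb2, described next, all fell short of it there. On the same scale 45.0%, 47.8% and 26.6% of all genes were past the size and p limits. The share of all genes at an unadjusted p under 0.05 is not set beside the 61.

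Rps15a exceeded the set in both lymphoid comparisons. This small subunit gene (chr7:118104372-118116188, minus strand; the start sequence is given above) had 3662 to 4699.9 CPM (median 3994) in lymphoid sums, 1930.4 to 2253 (median 2112) in C1qa-high sums and 1909.5 to 2142 (median 2011) in C1qa-low sums. The lymphoid values did not overlap with the others (log2 fold change 0.89 ± 0.047 (SE), adjusted p = 5.85e-15 against C1qa-high cells, and 0.86 ± 0.047 against C1qa-low cells). Its deviation from the set was 0.59 ± 0.033 (SE), adjusted p = 6.20e-14, and 0.52 ± 0.033 against C1qa-low cells.

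Rpsa, a small subunit protein also known as the laminin receptor precursor, exceeded the set against C1qa-high cells. It had 3396 to 4535 CPM (median 3906) in lymphoid sums against 1992 to 2423 (median 2097) and 2115 to 2437 (median 2238) in the myeloid classes, with no overlap. The deviation was 0.50 ± 0.032 (SE), adjusted p = 6.57e-13 against C1qa-high cells and 0.31 ± 0.032 against C1qa-low cells.

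Rpl12, which sits at the base of the P stalk, stepped through the classes. It had 2156 to 2645 CPM (median 2338) in lymphoid, 1442 to 1897 (median 1610.2) in C1qa-high and 1095 to 1396 (median 1176) in C1qa-low sums, and none of the 3 ranges overlapped. It passed the limit against C1qa-low cells (deviation 0.51 ± 0.033 (SE), adjusted p = 6.24e-13) and stayed at 0.18 ± 0.033 against C1qa-high cells.

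Rps29, a small subunit protein, went the other way from the set against C1qa-high cells. It had 3655 to 4279 CPM (median 3912) in lymphoid sums and 3784 to 4996 (median 4317) in C1qa-high sums. The ranges overlapped, but the lymphoid value was the lower one in 8 of 8 mice (log2 fold change -0.21 ± 0.037 (SE), adjusted p = 1.95e-05), and the deviation from the set was -0.51 ± 0.027 (SE), adjusted p = 2.04e-14. In C1qa-low sums Rps29 had 3130 to 3801 CPM, below the lymphoid value of the same mouse in each mouse. Its part of the members' UMIs was still smaller in lymphoid sums (1.67% to 2.01%) than in C1qa-low sums (2.15% to 2.49%). Just under the limit in the same comparison were Rps25 at -0.39, Rplp0 at 0.35 and Rpl10 at -0.34. Against C1qa-low cells these were Rpl10 at -0.43, Rps27l at -0.42 and Rpl3 at 0.39.

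**Figure D4:**
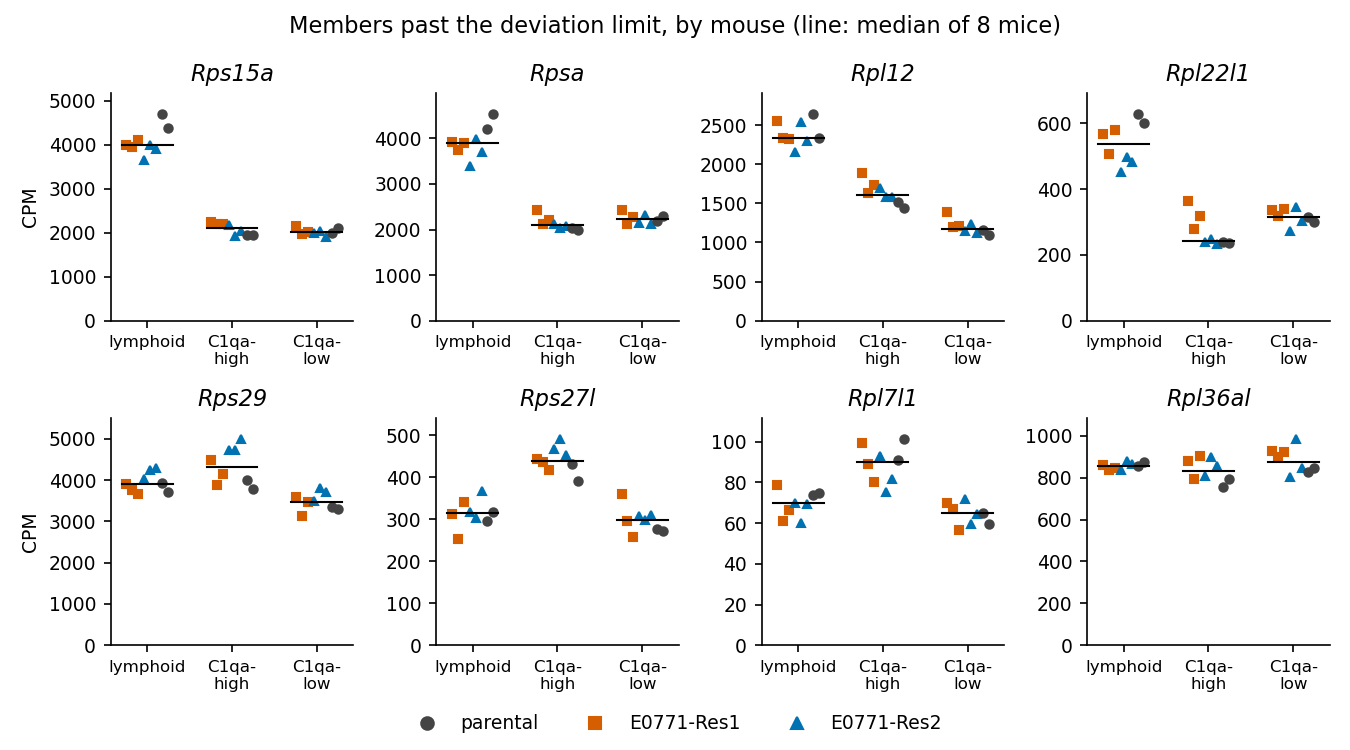
Levels of 8 ribosomal members past the deviation limit in at least 1 lymphoid comparison (y axis, CPM, linear from 0), with 1 point per mouse marked by tumor, the median of 8 mice as a line, and the 3 cell classes along the x axis. Rps15a, Rpsa, Rpl12 and Rpl22l1 are higher in every lymphoid sum than in any myeloid sum, whereas Rps29, Rps27l and Rpl7l1 are highest in C1qa-high cells in median and Rpl36al is nearly level.

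The 3 P stalk genes had fold changes of unequal size. Rplp0, the stalk's base, rose by 0.65 ± 0.048 against C1qa-high cells and by 0.37 ± 0.047 against C1qa-low cells, from 1621 to 2121 CPM in C1qa-high and 1854 to 2309 in C1qa-low cells to 2542 to 3450 in lymphoid cells. Rplp1 rose by 0.14 ± 0.041 and 0.56 ± 0.041, the larger value against C1qa-low cells. It had 3584 to 4066 CPM (median 3811) in lymphoid, 2854 to 3660.5 (median 3306) in C1qa-high and 2149 to 2551 (median 2374) in C1qa-low sums. Rplp2 rose by 0.35 ± 0.041 and 0.29 ± 0.041, like the set.

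Paralogs, copies of a ribosomal protein gene that encode a near relative of the protein, had fold changes spread on both sides of 0. Of the 7 among the members, 5 were tested, and 2 were higher and 2 lower in lymphoid than in C1qa-high cells. Reads of near-identical copies can be lost or assigned to the wrong one when they are counted, which bears most on Rps27rt and Rpl36al, so their values are uncertain.

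Rpl22l1, the paralog of Rpl22, was higher in lymphoid cells, with 452 to 628 CPM (median 537) against 232 to 363 (median 243) in C1qa-high and 271 to 346 (median 316) in C1qa-low sums, with no overlap (log2 fold change 0.93 ± 0.068 (SE), adjusted p = 4.01e-12 against C1qa-high cells). Its deviation from the set was 0.63 ± 0.060 (SE), adjusted p = 1.25e-09, while that of Rpl22 was 0.086 ± 0.035, below the limit. In the C1qa-high sums the E0771-Res1 mice had 363, 278 and 319 CPM, above the 232 to 247 of the other mice. This order was picked after the values were seen, and Rpl22l1 was not called for E0771-Res1 against parental there. Over all genes, 12.3% had every E0771-Res1 value above both parental mice in that class.

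Rps27l, a paralog of Rps27 known as a target of p53, was lower in lymphoid cells, with 254 to 367 CPM (median 315) against 391 to 492 (median 439.6) in C1qa-high sums, without overlap (log2 fold change -0.57 ± 0.060 (SE), adjusted p = 5.00e-09). The deviation was -0.87 ± 0.068 (SE), adjusted p = 2.99e-11. Its level in C1qa-low cells was 258 to 361 (median 297), so it was C1qa-high cells that stood apart from both other classes (log2 fold change 0.49 ± 0.058 against C1qa-low cells, higher in 8 of 8 mice). Rps27 itself rose by 0.37 ± 0.037 from C1qa-high to lymphoid cells.

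Rpl7l1, a relative of Rpl7 that acts in assembly of the large subunit, had 59.9 to 78.9 CPM (median 69.7) in lymphoid, 75.4 to 101 (median 90.0) in C1qa-high and 56.7 to 72.1 (median 64.9) in C1qa-low sums. It was lower in lymphoid than in C1qa-high cells in 8 of 8 mice (log2 fold change -0.42 ± 0.059 (SE), adjusted p = 7.68e-07), while Rpl7 rose (0.49 ± 0.040). Rpl36al was nearly level in CPM, at 835 to 877 (median 857) in lymphoid, 756 to 901 (median 831) in C1qa-high and 802 to 985 (median 873) in C1qa-low sums, and so fell behind the set (deviation -0.53 ± 0.040 (SE), adjusted p = 8.57e-12, against C1qa-low cells). After TMM scaling it was called lower in that comparison (log2 fold change -0.20), a call lost in 2 of 18 alternatives. Its relative Rpl36a rose by 0.63 ± 0.056 in that comparison. Rps27rt had 29.2 to 57.0 CPM (median 44.0) in lymphoid sums and 29.2 to 38.6 (median 34.1) in C1qa-high sums, which overlapped. It was called higher in lymphoid cells (log2 fold change 0.30), and the call was lost in 1 of 18 alternatives. Rpl3l and Rpl39l, at medians of 2.27 and 1.64 CPM in lymphoid sums, were too low to test, while Rpl3 rose by 0.60 ± 0.049 and Rpl39 by 0.34 ± 0.044 against C1qa-high cells.

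The 9 members that encode no ribosomal protein were likewise spread around 0. Of the 7 tested, 2 were higher and 2 lower in lymphoid than in C1qa-high cells. Rps19bp1 was lower, with 27.1 to 50.4 CPM (median 40.4) against 45.7 to 59.9 (median 53.4) (log2 fold change -0.45 ± 0.074 (SE), adjusted p = 9.32e-06), in 8 of 8 mice. Rps6kb1, which encodes S6 kinase 1, was higher (log2 fold change 0.44 ± 0.11 (SE), adjusted p = 8.08e-04), and so was Rps6ka1, a kinase of the RSK family (0.29 ± 0.070). Rps6ka3 and Rps6ka5, of the RSK and MSK families, had log2 fold changes of 0.088 ± 0.11 and -0.013 ± 0.18 that did not pass the test. Rps6kb2, S6 kinase 2, did not pass the test against C1qa-low cells (log2 fold change -0.18 ± 0.14 (SE), adjusted p = 0.278), and its deviation from the set was -0.51 ± 0.14 (SE), adjusted p = 0.00177. Rps6kc1, a kinase-like protein, was lower against C1qa-high cells (-0.87 ± 0.23) and averaged 16.0 UMIs per sum, under the minimum of 20 for a named result.

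Between C1qa-high and C1qa-low myeloid cells the members did not move as a set. Of 89 members, 28 were higher and 16 lower in C1qa-high cells, where 28.7% and 26.8% of all genes were called higher and lower, and the median log2 fold change was 0.032 over the members and 0.030 over all genes. The split of calls depended on the scaling and on which cells were counted. It was 49 higher and 7 lower with total UMIs as library size, 24 and 24 with DESeq2, 49 and 0 after thinning each cell to 2000 UMIs, and 8 and 30 in cells of 5000 to 10000 UMIs. Over all genes the median log2 fold change in these fits was 0.11, 0, 0.017 and 0.015. The share of all genes called in these fits is not given, so the counts do not show whether members moved more than other genes. The gates were applied again to the thinned counts, which left 745 C1qa-high and 4469 C1qa-low cells. Thinning thus changed the classes as well as the depth. Rplp1 and Rps27l were higher in C1qa-high cells in the main fit and in all 18 alternatives (log2 fold change 0.42 ± 0.041 and 0.49 ± 0.058), as was Rpl7l1 (0.37 ± 0.054). Rplp0 was lower (-0.28 ± 0.047), and its call was lost in 1 of 18 alternatives. Rpsa and Rps27a were called lower at -0.16 ± 0.046 and -0.10 ± 0.038, and both turned slightly positive after thinning. The parts taken by the subunits were alike in all classes: small subunit genes held 44.1% ± 0.302, 43.6% ± 0.593 and 44.1% ± 0.447 (SD, n = 8) of the members' UMIs in lymphoid, C1qa-high and C1qa-low cells.

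Other genes of the translation machinery were counted from fixed lists, and their counts stand beside 30.9% of all genes called higher and 29.7% lower in lymphoid against C1qa-high cells, and 34.1% and 30.9% against C1qa-low cells. Rack1, a small subunit protein whose gene the name rule misses, was higher in lymphoid cells against both myeloid classes (0.29 ± 0.043 and 0.31 ± 0.043). Fau, which encodes a ribosomal protein fused to a ubiquitin-like protein, is also outside the rule, and its calls depended on the setting. Against C1qa-high cells its log2 fold change of 0.058 ± 0.034 did not pass the test in the main fit. It was called higher in lymphoid cells at 5000 to 10000 UMIs, in cells without Mki67 or Top2a UMIs, after thinning and with total UMIs as library size. Against C1qa-low cells its fitted value was -0.097 ± 0.034, but its median before TMM scaling was higher in lymphoid cells (5891 against 5668 CPM). This lower call was lost with total UMIs as library size, at 5000 to 10000 UMIs and in cells without Mki67 or Top2a UMIs. After thinning Fau was called higher there too. The list of translation elongation and partner genes was a broad one that also held Pabpc1, Pabpc4, Tpt1 and Eef1e1. Of its 12 tested genes, 11 were higher and 1 lower in lymphoid than in C1qa-high cells, with a median of 0.34 on the log2 scale. Against C1qa-low cells 9 of them were higher and 0 lower. Eef1b2, a nucleotide exchange factor of elongation, rose by 0.58 ± 0.044 and 0.59 ± 0.044. Pabpc4, a poly(A)-binding protein, rose by 0.94 ± 0.16 and 1.42 ± 0.16, and Eef1e1 was lower against C1qa-high cells (-0.31 ± 0.11). Initiation factors were mixed, with 9 higher and 8 lower of 35 against C1qa-high cells and 16 higher and 7 lower against C1qa-low cells. Eif3e rose by 0.50 ± 0.052 and 0.45 ± 0.051, and Eif4a1, a helicase of initiation, was lower in both (-0.35 ± 0.047 and -0.41 ± 0.046).

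Most tested genes that make ribosomes were higher in C1qa-high than in C1qa-low cells, where 28.7% and 26.8% of all genes were called higher and lower. Of 34 tested genes for ribosome biogenesis and rRNA synthesis, 13 were higher and 4 lower in lymphoid than in C1qa-high cells, 27 higher and 1 lower in lymphoid than in C1qa-low cells, and 24 higher and 1 lower in C1qa-high than in C1qa-low cells (median log2 fold change 0.096, 0.40 and 0.39). Without cells that had a UMI of Mki67 or Top2a, the count was 5 higher and 4 lower for lymphoid against C1qa-high cells, 14 higher and 1 lower for lymphoid against C1qa-low cells (13 and 1 of 30 in cells of 5000 to 10000 UMIs), and 23 higher and 0 lower between the myeloid classes. The share of all genes called in these fits is not given. Nor is a count at matched depth given between the myeloid classes, of which C1qa-high cells were the deeper. Dkc1, the pseudouridine synthase of small nucleolar particles, rose by 0.82 ± 0.093 and 1.30 ± 0.095 in lymphoid cells, and Nop56, a core protein of these particles, was higher in C1qa-high than in C1qa-low cells (log2 fold change 0.79 ± 0.075). The 78 genes for mitochondrial ribosomal proteins, which build a separate ribosome, were called lower in lymphoid than in C1qa-high cells more often than higher (5 higher, 38 lower, median -0.16), and with total UMIs as library size 12 were higher and 31 lower. For the latter fit the share of all genes called is not given. Against C1qa-low cells 27 were higher and 14 lower in lymphoid cells (median 0.11). Of the same genes, 56 were higher and 3 lower in C1qa-high than in C1qa-low cells (median 0.32). Of 13 regulators of ribosomal protein mRNA, 0 were higher and 3 lower in lymphoid than in C1qa-high cells. Among these Eif4ebp1, which encodes an inhibitor of cap-dependent initiation, had a log2 fold change of -0.91 ± 0.067, and against C1qa-low cells -0.96 ± 0.066.

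Resistant and parental tumors were compared within each class. In lymphoid cells the members' share was 22.7% and 22.3% in the 2 parental mice, 21.7%, 21.2% and 21.0% in E0771-Res1 mice and 20.2%, 22.1% and 21.2% in E0771-Res2 mice. All 6 resistant values lay below both parental values, by 1.24 percentage points in the mean. In C1qa-high cells the order was the opposite, with 15.6% and 15.5% in parental mice, 17.8%, 16.0% and 17.1% in E0771-Res1 mice and 17.2%, 16.6% and 17.0% in E0771-Res2 mice. All 6 resistant values lay above both parental values, by 1.38 points. In C1qa-low cells the groups overlapped, at 15.1% ± 0.288 (SD, n = 2), 15.5% ± 0.927 (n = 3) and 15.3% ± 0.570 (n = 3). With 2 parental mice, a difference between them and 3 others cannot reach an exact two-sided p under 0.2, and one between them and all 6 resistant mice cannot reach one under 0.0714, and no test was made on the share.

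The lymphoid difference depended on which cells were counted. It was -2.21 percentage points in cells of 5000 to 10000 UMIs and -1.22 after thinning, with 6 of 6 resistant mice below both parental mice. With at least 4 UMIs of the lymphoid gate and at most 1 of C1qa, which left 523 cells, the parental mice had 24.1% and 23.9%, and the resistant mice lay on both sides of them (mean 23.4% ± 0.589 for E0771-Res1, 24.8% ± 1.49 for E0771-Res2). In cells without a UMI of Mki67 or Top2a the parental mean was 20.3% ± 0.946, that of E0771-Res1 mice 20.6% ± 0.551 and that of E0771-Res2 mice 19.9% ± 0.456, which overlapped. A UMI of either gene was present in 43.1%, 43.9% and 36.6% of the lymphoid cells in the same order. Macrophage markers in the lymphoid sums, all 6 of them above 0 in each mouse, summed to 2827 to 4084 CPM for parental mice, 3685 to 5747 for E0771-Res1 mice and 4716 to 6100 for E0771-Res2 mice. Lymphoid cells with at most 1 C1qa UMI had a share of 22.8% and 22.9% in parental mice. The same cells had 23.0%, 22.2% and 22.2% in E0771-Res1 mice and 22.4%, 23.6% and 23.3% in E0771-Res2 mice, on both sides of the parental values. The part of macrophage RNA in the difference was not tested. The C1qa-high difference was of like size without cycling cells (1.53 points, 6 of 6 mice above both parental mice) and in cells of 5000 to 10000 UMIs (2.06 points, 6 of 6). After thinning it was 1.40 points, with 5 of 6 mice above both, and 1.78 points when at least 20 C1qa UMIs were required (6 of 6). Monocyte markers in the C1qa-high sums were lower in resistant mice, where the share was higher. All 5 were above 0 in each mouse, and they summed to 2633 to 3259 CPM for parental mice, 1235 to 2153 for E0771-Res1 mice and 1398 to 1678 for E0771-Res2 mice, without overlap between parental and resistant mice. The 6 macrophage markers summed to 15705 to 16904, 16079 to 21116 and 18819 to 20542 in the same order. The 6 T and NK cell markers, all above 0 in each mouse, summed to 105 to 164, 94.2 to 152 and 237 to 288. E0771-Res2 mice thus lay above the others. Il7r, which did not separate the classes, ran from 63.8 to 230 CPM in C1qa-high sums. Each other gene of the 6 reached at most 33.0 there, so the sum does not show a difference in T or NK cell RNA. E0771-Res2 mice also lay above the others for 3 plasmacytoid dendritic cell markers, which summed to 1245 to 1335, 1119.9 to 1333 and 1458 to 1702. Only 1 of them, Bst2, was above 0 in each mouse, and it made up nearly all of the sum (1119.9 to 1701). Siglech and Ccr9 reached at most 3.82 and 1.70 CPM in C1qa-high cells, so the sum does not show a difference in plasmacytoid dendritic cells. The part of these markers in the difference and in the calls given next was not tested.

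**Figure D5:**
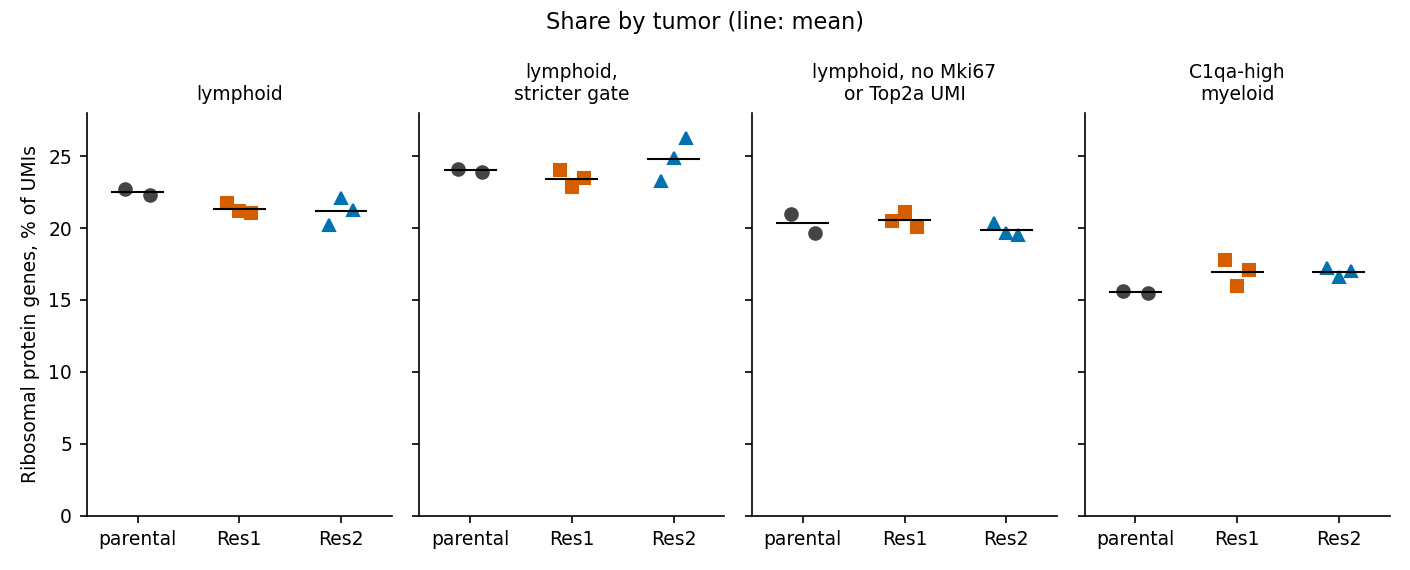
Share of UMIs held by the members (y axis, percent) by tumor (x axis), with 1 point per mouse and the mean as a line, for lymphoid cells, lymphoid cells under the stricter gate, lymphoid cells without Mki67 or Top2a UMIs, and C1qa-high myeloid cells. Parental mice are the highest of all in the first panel and overlap with the others in the next 2, and they are the lowest in the last panel.

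Gene by gene, few members passed the test between tumors. In lymphoid cells 0 of 89 members were called in either resistant line (edgeR, all 8 mice in 1 fit), where 0.0421% of all genes were called for E0771-Res1 and 1.01% for E0771-Res2. At an unadjusted p under 0.05 there were 3 and 14 members, and DESeq2 called 0 in both. The median log2 fold change of the members was -0.068 and -0.063, and 46 and 37 members had every resistant value below both parental values (11.7% and 17.3% of all genes did). In C1qa-low cells 0 of 90 members were called in either line (0.0303% and 4.34% of all genes), with 0 and 7 at an unadjusted p under 0.05 and 0 by DESeq2. The share of all genes at an unadjusted p under 0.05 is not set beside these counts, so they do not show an excess of members.

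In C1qa-high cells 0 of 89 members were called in E0771-Res1 (0.0748% of all genes, 20 members at an unadjusted p under 0.05, and 1 by DESeq2). The 0.0748% is a share at the adjusted p, and that at the unadjusted p is not given, so the 20 do not show an excess. In E0771-Res2, 4 were called, all higher, where 1.98% of all genes were called. The median log2 fold change of the members was 0.13 and 0.14, near 0.00 over all genes, and 46 and 53 members had every resistant value above both parental values (12.3% and 16.3% of all genes did). The comparisons share the parental mice. Rps19, a small subunit protein, had 2380.0 and 2147 CPM in parental mice, 2640.2, 2339.6 and 2609 in E0771-Res1 mice and 2883, 2885 and 2974 in E0771-Res2 mice. The E0771-Res2 values were the highest and did not overlap with either group (log2 fold change 0.39 ± 0.084 (SE), adjusted p = 0.0318 against parental).

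Rpl38, a large subunit protein, had 1744 and 1585 in parental and 2028, 2241 and 2144 in E0771-Res2 mice (log2 fold change 0.39 ± 0.091 (SE), adjusted p = 0.0485). Rpl37, also of the large subunit, had 1889 and 1873 against 2288, 2409.6 and 2341 (log2 fold change 0.34 ± 0.076 (SE), adjusted p = 0.0351), and Rps12, of the small subunit, had 2664 and 2500.4 against 3229.8, 3086 and 3239.7 (log2 fold change 0.33 ± 0.078 (SE), adjusted p = 0.0485). In all of them the parental and E0771-Res2 values did not overlap. E0771-Res1 replicate 1 had 3121 for Rps12, within the E0771-Res2 values, and E0771-Res1 replicate 2 had 1724 for Rpl38, within the parental values. The 4 calls rest on each mouse: without any single parental or E0771-Res2 mouse 0 members were called, without E0771-Res1 replicate 2 there were 15, and in cells of 5000 to 10000 UMIs there were 23. The share of all genes called in these other fits is not set beside the counts. They do not show whether members moved more than other genes.

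Whether the resistant lines' difference from parental tumors differed between C1qa-high and lymphoid cells was tested with an interaction term over both lines, added after the data were seen. Of 89 members 1 was called, Rpl23a, where 0.138% of all genes were called. The median of the interaction over the members was 0.21 on the log2 scale and 84 of 89 members were above 0, against a median of -0.0087 over all genes. The members were measured in the same mice, so the 84 are not independent, and the share of all genes above 0 is not given. Rpl23a, a large subunit protein, had 1941 and 1765 CPM in lymphoid sums of parental mice and 1145 and 1122 in their C1qa-high sums. In resistant mice the lymphoid sums had 1833, 1658, 1624, 1604, 1812 and 1618 and the C1qa-high sums 1399, 1271, 1258, 1336, 1391 and 1315, so the parental C1qa-high values were the lowest of their class (interaction 0.38 ± 0.075 (SE), adjusted p = 0.0410). The call was lost under each of the 4 other choices of cells tried, with adjusted p from 0.0733 to 0.794. Of the other lists of the translation machinery, 0 genes were called between tumors in any class.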

How the data were processed

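CD45+ cells were sequenced with Chromium 3′ v3.1 kits after tagging each mouse. The authors counted UMIs with Cell Ranger 6.1.2 (per the file headers) against mm10 (per the labels) and deposited the raw UMI counts, without normalization. From these counts, cells were gated as described, and UMIs were summed per mouse and class (24 sums of 68 to 744 cells). Depth per mouse is given above, and totals of the sums limit low genes. edgeR 4.0.16 in R 4.3.3 (filterByExpr, TMM, quasi-likelihood test, Benjamini-Hochberg adjusted p over all genes) was run with mouse as a block between classes and without it between tumors. The 9 tag features stayed out, and 38 symbols shared by several genes were kept apart by identifier. Alternatives were DESeq2 1.42.0, other scalings, no filter, other gates, thinning to 2000 UMIs and leaving out each mouse. After thinning the gates were applied again, so the classes held other cells than in the main fit. Cells of 5000 to 10000 UMIs, cells without cycling UMIs and the interaction were added after the data were seen. The members and gene lists were chosen with earlier results of these data known. The myeloid gate of 5 UMIs was set here.

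Named were, per class comparison, up to 6 members per direction with the largest deviation (adjusted p under 0.05, at least 0.5 on the log2 scale, same sign in 8 mice, at least 20 UMIs per sum), up to 5 called members per direction between tumors, Rplp0, Rplp1, Rplp2, Rpsa, Rps27a, Rps6 and the paralogs with their parent genes, members that encode no ribosomal protein, and the 3 nearest to the median. Other members are named as examples chosen after their values were seen. Coordinates are from GENCODE M21 (GRCm38) and start sites from RefSeq (GRCm38.p6).

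The fits were tested on simulated counts. With 200 genes changed by 1 on the log2 scale, 94% were recovered for lymphoid against C1qa-high cells, and 46%, 65.5% and 69% for E0771-Res2 against parental in lymphoid, C1qa-high and C1qa-low cells. Of the genes called there, 7.84%, 11.5%, 3.68% and 6.12% had not been changed. The simulation held no other difference between classes or mice and changed as many genes up as down. It does not show recovery at smaller changes, such as those of most members, or how TMM scaling behaves where many genes differ. Replicates of a group differed beyond the sampling noise of UMIs (chi-square per degree of freedom 1.91 to 7.52). Sums over different cells of the same mouse could do so too, so this value does not show that the mice are separate. They were taken as separate by their tags.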

Additional observations from a re-analysis of the deposited data

Results flagged for a closer look

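The share of the members differed from parental tumors in opposite directions in 2 classes. The mean of the 6 resistant mice was -1.24 percentage points from the parental mean in lymphoid cells, with 6 of 6 resistant mice below both parental mice, and 1.38 points above it in C1qa-high cells, with 6 of 6 above both. The difference between these effects was not tested on the share. Under the stricter lymphoid gate the lymphoid value was 0.106 points, and in cells without Mki67 or Top2a UMIs it was -0.119. In lymphoid cells with at most 1 C1qa UMI the resistant mice lay on both sides of the parental mice.

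Rpl23a was the member whose effects in the classes differed by the interaction test, by 0.38 on the log2 scale. Its call was lost under each of the 4 other choices of cells tried (edgeR adjusted p from 0.0733 to 0.794). In the main fit 84 of 89 members were above 0, with a median of 0.21. The members were measured in the same mice and the share of all genes above 0 is not given, so this count does not back the call.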

How the results depend on the processing

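The lymphoid excess in share and the counts of members called in both lymphoid comparisons kept their direction under all alternatives run (70 to 82 and 72 to 80 members called). The share difference to C1qa-high cells moved to 7.48 points under the stricter lymphoid gate. It was smaller without cycling cells, where the shares were 19.5% to 21.1% in lymphoid and 15.1% to 17.5% in C1qa-high cells. That to C1qa-low cells moved to 8.77 under this gate, 7.61 after thinning, 5.22 in cells of 5000 to 10000 UMIs and 4.97 without cycling cells. In cells of 5000 to 10000 UMIs the difference between the myeloid classes reversed to -0.174 points, and the 38 members called were mostly lower in place of higher. The members past the deviation limit against C1qa-low cells numbered 11 under the stricter gate and 0 without cycling cells, in place of 4. Between the myeloid classes there were 3 at 5000 to 10000 UMIs and 1 without the filter, in place of 0, and 0 to 1 when a mouse was left out. After thinning, Rps27a (0.052), Rps27rt (0.31) and Rpsa (0.037) reversed in C1qa-high against C1qa-low cells. The cause was not tested.

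Between tumors, E0771-Res2 C1qa-high cells had 12 members called under the stricter myeloid gates, 0 after thinning, 23 at 5000 to 10000 UMIs, 2 with TMM computed without the members, 9 without the filter, and 0 to 15 when a mouse was left out. These counts, and those under other alternatives in this section, stand without the share of all genes called in the same fits. E0771-Res1 C1qa-high cells had 1 without the filter and 1 by DESeq2. E0771-Res2 lymphoid cells had 10, all lower, at 5000 to 10000 UMIs, and E0771-Res2 C1qa-low cells 1 after thinning. The interaction gave 0 under the stricter lymphoid gate, without cycling cells and after thinning. With the replicate number as a block, 5 members were called for E0771-Res2 in C1qa-high cells and 0 in the other 5 comparisons of tumors. Samples with the same number did not deviate together (r from -0.045 to 0.073 over 21 pairs), so the numbers were not taken as pairs.

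Of 762 settings of single named genes, 700 kept direction and call, 59 kept direction and lost the call and 3 reversed. The smallest sums held 68 cells, and parental tumors had 2 mice.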
